A study of Mus musculus with 12 samples.

Results

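The adult globin genes of the mouse were followed through tumours of 12 mice. The 4 symbols taken were the alpha globin genes Hba-a1 and Hba-a2 and the beta globin genes Hbb-b1 and Hbb-b2, out of 19921 symbols in the count tables. They were chosen because, in these same tumours, beta globin was low after treatment while alpha globin hardly moved. Their differences from control are therefore a description, with no test. All 4 had enough counts to pass the filter that left 5443 genes. Hbb-b2 passed it only through its control libraries, where it held 16, 38 and 53 reads. A lower level after treatment was thus built into its selection.

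Tumours were grown from Colon26 cells, a mouse colon carcinoma line, of which 200000 were placed under the skin of wild-type BALB/c mice. Each of 4 groups held 3 mice, and each library came from the tumour of 1 mouse. The first group received minP1, a short immunostimulatory peptide of the chromatin protein HMGN1, at 0.08 µg into the peritoneum on day 9. The second received anti-PD-L1, clone 10F.9G2, which blocks the checkpoint ligand PD-L1, at 200 µg on days 4 and 8. The combination received both, and the control neither. The labels do not say what the control mice were injected with, nor the age and sex of the mice. The combination is named by the sample titles alone, since its treatment field lists the antibody and no peptide. All tumours were taken on day 10, digested, and depleted of tumour cells and dead cells on Percoll. A step to lyse red cells is not among the steps the labels list.

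Haemoglobin is a tetramer of alpha and beta globin chains, each holding a haem group that binds oxygen. Red cell precursors make alpha and beta chains in near balance, under erythroid factors of the GATA and Krüppel-like families, and young red cells keep globin mRNA after they have lost the nucleus. Blood in a tissue therefore brings both kinds of transcript. Mouse strains differ at the beta locus. BALB/c carries the diffuse haplotype, with Hbb-b1 (beta-major) and Hbb-b2 (beta-minor), whereas the C57BL/6J reference genome carries the single haplotype, with Hbb-bs and Hbb-bt.

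The alpha genes lie on chromosome 11 of GRCm38, Hba-a1 at chr11:32283511-32284465 and Hba-a2 at chr11:32296489-32297298, both on the plus strand, with the globin gene Hbq1b between them. On chromosome 7 the GENCODE M21 annotation of that build places Hbb-bs at chr7:103826534-103828096 and Hbb-bt at chr7:103812524-103813996, both on the minus strand. It has no gene named Hbb-b1 or Hbb-b2, so no position or sequence is given for these 2 rows. The sources used here give neither the annotation behind the counts nor the treatment of reads that match several genes.

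How far the copies can be told apart is shown by the only stretch in which their coding sequences differ. The alpha genes differ at 1 of 429 coding bases, C381T with Hba-a1 first, and Hbb-bs and Hbb-bt differ at 1 of 444, C417T with Hbb-bs first, both counted from 1 at the A of the start codon. The capital letter marks that base in 30 bases of coding sequence:
Hba-a1: gcatgcctctctggaCaaattccttgcctc
Hba-a2: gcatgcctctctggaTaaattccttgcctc
Hbb-bs: ggtggctggagtggcCgctgccctggctca
Hbb-bt: ggtggctggagtggcTgctgccctggctca
These libraries read the 5′ end of the transcript, so this base lies far from where a tag begins. At the 5′ end itself, all 35 bases before the start codon were identical in Hba-a1 and Hba-a2, as were the 380 coding bases that follow. A short tag from the start of either alpha transcript thus carries no base that separates them. Hbb-bs and Hbb-bt differed at 9 of the 53 bases before the start codon, so a tag from either can be told apart there.

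The bases just upstream of the start sites show which promoter letters alpha and beta genes share. The beta genes shown are Hbb-bs and Hbb-bt of the reference genome. They stand in for Hbb-b1 and Hbb-b2, whose promoters are not analysed here, and BALB/c may differ from them. The windows are the 250 bases before the RefSeq start in GRCm38.p6, read 5′ to 3′ on the gene's own strand. The gene spans of GENCODE M21 begin further upstream than these starts. Capitals mark 4 motifs, searched on both strands. The first is CACCC, which Krüppel-like factors bind. The second is CCAAT, a common promoter box, seen from the other strand as ATTGG. The third is ATATAA, one form of the TATA box. The last is GATAAG, which erythroid factors of the GATA family bind. None of these matches overlap each other.
Hba-a1, chr11:32283422-32283671, plus strand: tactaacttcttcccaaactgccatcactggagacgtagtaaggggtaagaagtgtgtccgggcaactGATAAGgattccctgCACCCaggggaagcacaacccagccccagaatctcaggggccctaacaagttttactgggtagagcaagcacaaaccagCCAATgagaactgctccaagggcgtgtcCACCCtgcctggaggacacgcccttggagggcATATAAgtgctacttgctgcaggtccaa
Hbb-bs, chr7:103827929-103828178, minus strand: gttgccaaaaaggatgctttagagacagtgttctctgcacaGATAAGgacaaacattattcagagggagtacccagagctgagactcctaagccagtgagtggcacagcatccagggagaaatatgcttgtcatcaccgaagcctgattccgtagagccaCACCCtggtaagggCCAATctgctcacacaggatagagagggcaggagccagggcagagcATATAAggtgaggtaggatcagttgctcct
Hbb-bt, chr7:103813924-103814173, minus strand: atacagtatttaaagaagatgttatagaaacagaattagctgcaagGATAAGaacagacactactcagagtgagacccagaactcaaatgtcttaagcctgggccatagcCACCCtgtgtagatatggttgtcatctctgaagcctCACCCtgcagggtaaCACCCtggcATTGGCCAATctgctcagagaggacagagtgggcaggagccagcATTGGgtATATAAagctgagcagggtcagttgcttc
The Hba-a2 promoter is not repeated: its full RefSeq record, which runs on past the start site, was identical to that of Hba-a1 over 297 bases once shifted by 3. Of 32851 promoter windows of this length, 52.0% held CACCC, 33.8% CCAAT, 9.10% ATATAA and 6.55% GATAAG, and 46 (0.14%) held all 4. Each of the 3 windows shown held all 4, and so did that of Hba-a2. A match describes the letters in the window and is no measure of binding.

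Levels are given in CPM, counts per 1000000 of the library's summed counts of tested genes after TMM scaling (trimmed mean of M-values). A 5′ tag is read once per transcript end, so levels of different genes need no division by length. Reads that match several rows may still be lost or split, in a way not known here. Levels of alpha and beta rows are therefore levels of assigned reads, and may differ from those of transcripts. Totals were 276203 to 322613 counts per library in minP1 tumours, 188008 to 322493 in anti-PD-L1 tumours, 133917 to 196109 in combination tumours and 285753 to 473273 in control tumours. A value after ± is an SD over 3 mice for a level and an SE for a log2 difference.

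Hbb-b1, the beta-major chain, was at 79.0, 43.9 and 82.3 CPM in minP1 tumours. It was at 30.2, 96.4 and 82.7 CPM in anti-PD-L1 tumours, at 8.54, 0 and 22.6 CPM in combination tumours, and at 91.6, 307 and 184 CPM in control tumours. Every minP1 and every combination library lay below every control library, while 1 anti-PD-L1 library lay just above the lowest control. In counts, the combination libraries held 1, 0 and 4 reads of Hbb-b1, against 32, 84 and 82 in control libraries.

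Hbb-b2, the beta-minor chain, was at 15.1, 43.9 and 26.3 CPM in minP1 tumours. It was at 18.1, 14.8 and 13.8 CPM in anti-PD-L1 tumours, at 0, 0 and 5.64 CPM in combination tumours, and at 45.8, 139 and 119 CPM in control tumours. No treated library reached the lowest control library. The combination held 1 read of Hbb-b2 over 3 libraries, against 107 in control.

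Both beta rows were thus below all control libraries without overlap in minP1 tumours, 1 of the 2 in anti-PD-L1 tumours and both in combination tumours. The share of all 5443 tested genes that lay below control without overlap was 6.69% for minP1, 12.3% for anti-PD-L1 and 25.5% for the combination. The beta rows were picked on these contrasts, and Hbb-b2 passed the filter only through its control libraries, so nothing is read from their count. Summed, Hbb-b1 and Hbb-b2 averaged 96.9 ± 10.7 CPM in minP1 tumours, 85.3 ± 32.9 CPM in anti-PD-L1 tumours, 12.2 ± 14.5 CPM in combination tumours and 295 ± 154 CPM in control tumours (SD, n = 3 each). On the log2(CPM + 1) scale the beta sum differed from control by -1.45 ± 0.51 with minP1, -1.71 ± 0.62 with anti-PD-L1 and -5.35 ± 1.52 with the combination. The last value depends on the library at 0: it was -3.99 without combination replicate 2, and -3.84 with 10 CPM added in place of 1.

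Counts summed over a group give the same order without a pseudocount. At the control's rate, minP1 libraries would have held 240 beta reads and held 82, anti-PD-L1 libraries 207 and held 66, and combination libraries 132 and held 6. The ratios to control were 0.341 (95% exact interval 0.264 to 0.437) for minP1, 0.319 (0.241 to 0.417) for anti-PD-L1 and 0.0455 (0.0166 to 0.10) for the combination. For Hbb-b2 alone, the combination's ratio to control was 0.0216 (0.000543 to 0.123), on its single read. These intervals, and all others here, cover counting error and not the spread between mice. Reads carry no molecular identifiers, so repeat reads of a molecule cannot be set apart, and the counting error itself may be larger.

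Set against the lone treatments, the combination's highest library for the beta sum, 28.2 CPM, lay below the lowest anti-PD-L1 library, 48.4 CPM, and below the lowest minP1 library, 87.9 CPM. Of all tested genes, 14.9% lay below anti-PD-L1 and 20.9% below minP1 without overlap in this way. Between the lone treatments the beta sums overlapped, with minP1 at 87.9 to 109 CPM and anti-PD-L1 at 48.4 to 111 CPM.

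The alpha rows held more reads than the beta rows in every library. Hba-a1 was at 523, 1893 and 543 CPM in minP1 tumours, 1076, 704 and 437 CPM in anti-PD-L1 tumours, 546, 1074 and 389 CPM in combination tumours, and 592, 1126 and 1113 CPM in control tumours. Hba-a2 was at 467, 2124 and 570 CPM in minP1 tumours, 1342, 808 and 486 CPM in anti-PD-L1 tumours, 512, 1200 and 434 CPM in combination tumours, and 647, 1097 and 1142 CPM in control tumours. All 3 treated groups overlapped control for both genes, and the highest value of the series was in minP1 replicate 2. As rank by counts among all symbols of a library, Hba-a2 stood at 66 to 301 and Hba-a1 at 74 to 333. Hbb-b1 stood at 2095 to 3694 in minP1, 1765 to 4441 in anti-PD-L1, 5454 to 10860 in combination and 452 to 1849 in control libraries.

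**Figure D1:**
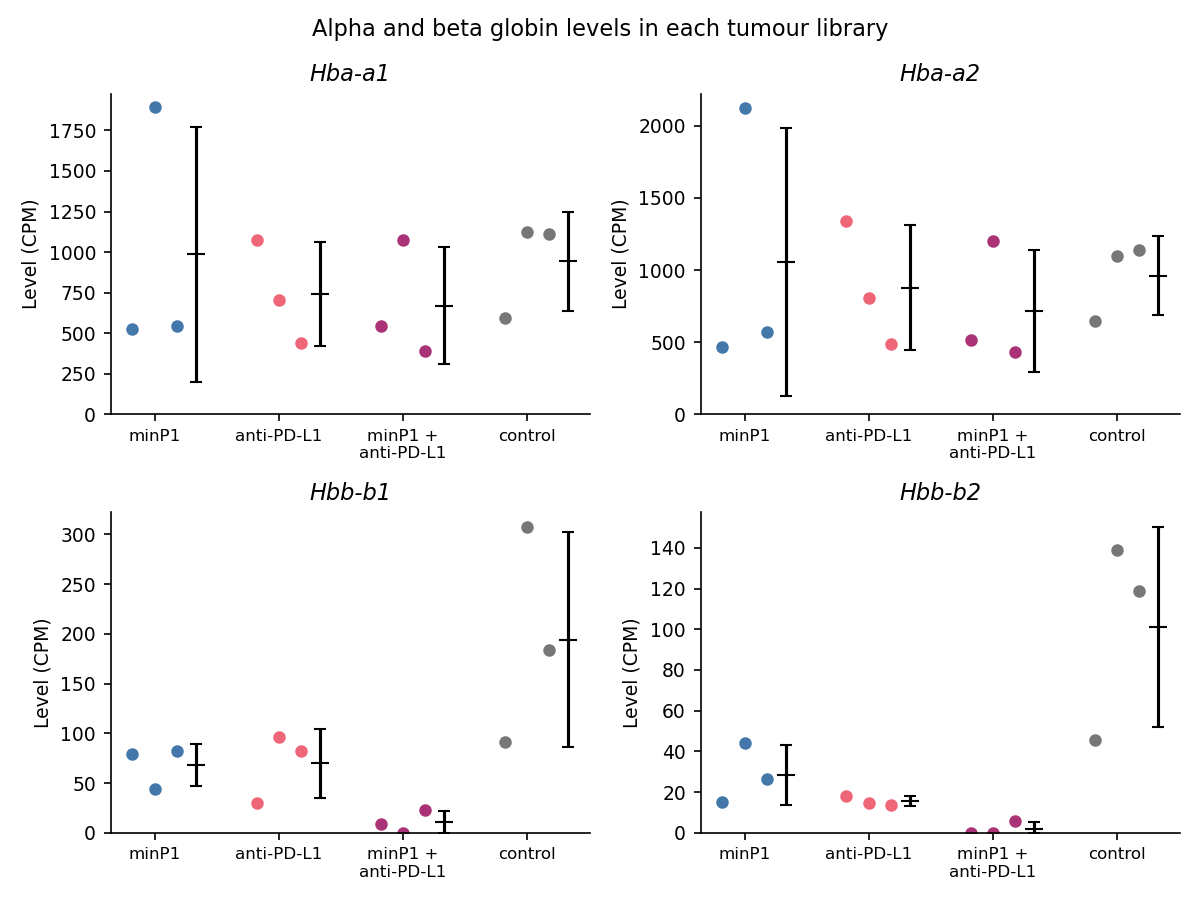
Level (CPM) of each alpha and beta globin row in each library, with 1 panel per gene and its own linear axis from 0. Points are libraries, and the bar to their right is the mean ± SD of 3 (cut off at 0). Hbb-b2 lies below every control in all treated libraries, whereas the alpha points of all 4 groups overlap. Hbb-b2 passed the filter only through its control libraries.

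The alpha sum averaged 2040 ± 1713 CPM in minP1 tumours, 1618 ± 753 CPM in anti-PD-L1 tumours, 1385 ± 778 CPM in combination tumours and 1906 ± 577 CPM in control tumours (SD, n = 3 each). On the log2(CPM + 1) scale it differed from control by -0.16 ± 0.71 with minP1, -0.29 ± 0.49 with anti-PD-L1 and -0.55 ± 0.52 with the combination. Over summed counts the alpha ratio to control was 1.05 (95% exact interval 0.986 to 1.12) for minP1, 0.774 (0.719 to 0.834) for anti-PD-L1 and 0.736 (0.673 to 0.804) for the combination, and the last 2 intervals lie below 1. They leave out the spread between mice, over which the groups overlapped. The sign of the log2 difference depended on single libraries. For minP1 it was 0.20 without minP1 replicate 1, 0.12 without minP1 replicate 3 and -0.81 without minP1 replicate 2. For anti-PD-L1 it was 0.06 without anti-PD-L1 replicate 3 and -0.64 without anti-PD-L1 replicate 1. For the combination it was -0.24 to -0.98 over all libraries left out in turn. These values leave room for alpha globin changes of either sign and do not show that its level was equal.

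The share of beta in the counts of the 4 rows needs no scaling between libraries. It was 8.68, 2.14 and 8.89% in minP1 tumours, 1.96, 6.85 and 9.46% in anti-PD-L1 tumours, 0.80, 0 and 3.31% in combination tumours, and 9.98, 16.7 and 11.8% in control tumours. Every treated library lay below every control library, by little in anti-PD-L1 replicate 3, whose 9.46% stood beside 9.98% in control replicate 1. The combination library without a beta read held 381 alpha reads, which allows a share of up to 0.787% when a count of 0 is taken to allow 3 reads. The exact interval reaches 0.964%. Over summed counts there were 20.7 alpha reads per beta read in minP1 tumours, 16.3 in anti-PD-L1 tumours, 108.5 in combination tumours and 6.71 in control tumours.

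The log2 ratio of beta to alpha counts, with 0.5 added to each, differed from control by -1.27 ± 0.75 with minP1, -1.39 ± 0.75 with anti-PD-L1 and -4.11 ± 1.44 with the combination. A single library carried much of each value. It was -0.56 without minP1 replicate 2, -0.70 without anti-PD-L1 replicate 1 and -2.77 without combination replicate 2. In the combination the ratio overlapped that of either lone treatment, since combination replicate 3, at 3.31%, lay above minP1 replicate 2 and anti-PD-L1 replicate 1.

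**Figure D2:**
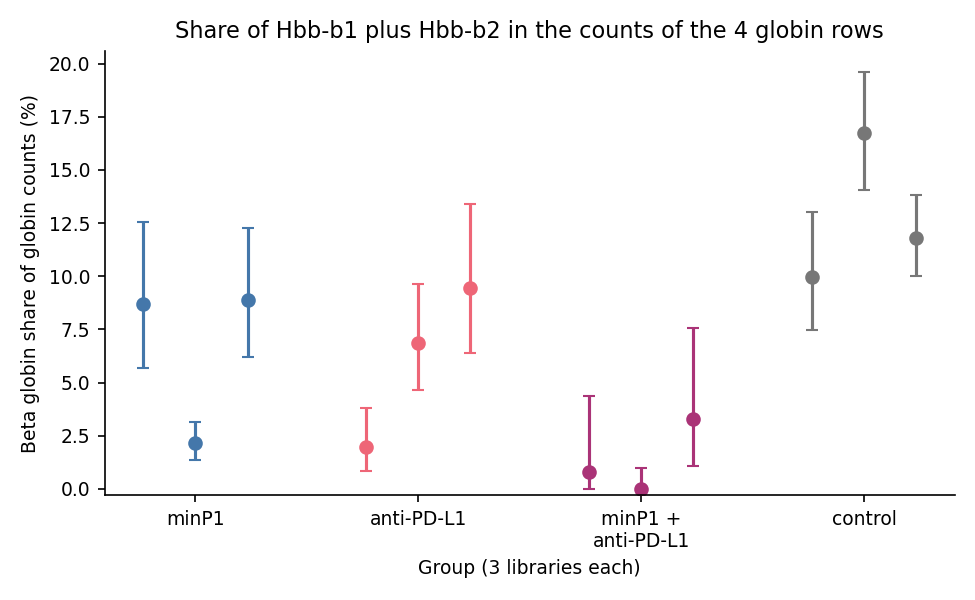
Share of Hbb-b1 plus Hbb-b2 in the counts of the 4 globin rows (%), by library and group. Bars are 95% exact binomial intervals, which cover counting error only. The 3 control libraries lie at 9.98 to 16.7% and all treated libraries lower, with 0 to 3.31% in the combination.

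Other features of the libraries moved in part with the beta share. Bc1, a short noncoding RNA, and Lrrc17 together held 1.94, 4.17 and 1.5% of all counts in minP1 tumours, 4.42, 2.35 and 3.56% in anti-PD-L1 tumours, 5.04, 6.32 and 2.49% in combination tumours, and 2.34, 1.89 and 1.36% in control tumours. The 4 libraries with the lowest beta shares, 0 to 2.14%, were the 4 with the highest Bc1 plus Lrrc17 shares, 4.17 to 6.32%. The match stopped there. The next highest Bc1 plus Lrrc17 share, 3.56% in anti-PD-L1 replicate 3, went with the highest beta share of the treated libraries, 9.46%. The next lowest beta share, 3.31% in combination replicate 3, went with 2.49%. Combination libraries were also among the shallowest of the series, and depth moved with the same groups. The part of either in the beta result was not tested.

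**Figure D3:**
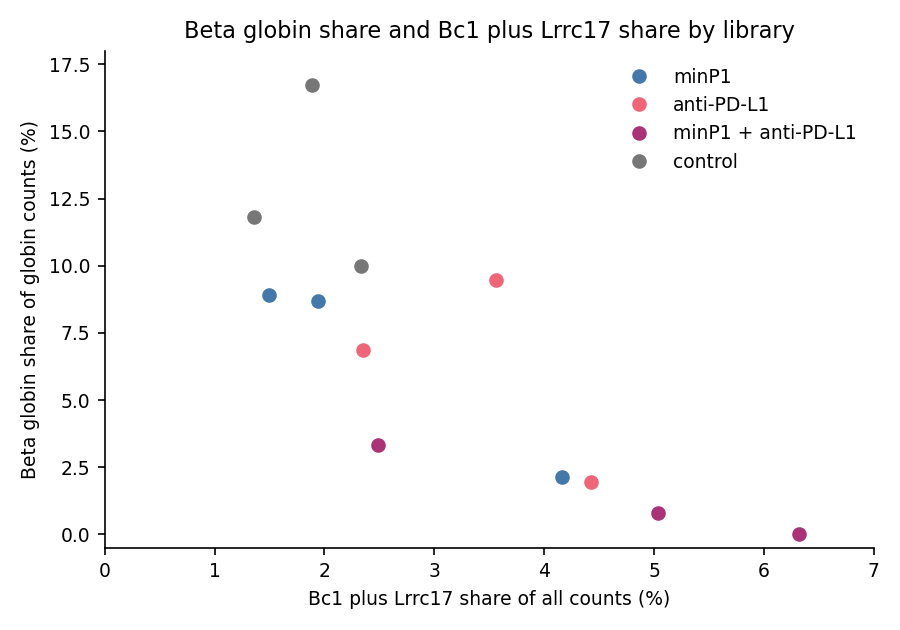
Beta share of globin counts (%, vertical axis) against the share of Bc1 plus Lrrc17 in all counts (%, horizontal axis), 1 point per library, coloured by group. The 4 points at the right, from 4.17 to 6.32%, hold the 4 lowest beta shares. The next point to their left, anti-PD-L1 replicate 3 at 3.56%, has a beta share of 9.46%.

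Within each pair the rows behaved differently for alpha and for beta. Hba-a1 made up 44.5 to 52.9% of alpha counts, and 48.3% of the 5473 alpha reads in all. The exact interval held 50% in 11 of 12 libraries, with anti-PD-L1 replicate 1 the exception at 44.5% (39.6 to 49.5%). Over summed counts the interval lay below 50% for all reads (46.9 to 49.6%) and for anti-PD-L1 (46.0%, 43.0 to 49.0%). It held 50% for minP1, the combination and control. The profiles of Hba-a1 and Hba-a2 over the 12 libraries lay 0.13 apart, as the root mean square of their centred log2(CPM + 1) values. With 5′ ends that match base for base, how reads were shared between the rows cannot be told from these counts, so the alpha genes are best read as a sum.

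Hbb-b1 exceeded Hbb-b2 in 10 libraries and equalled it in 2, of which 1 held no read of either. Its share of the pair was 70.7% of 82 reads in minP1 tumours, 83.3% of 66 in anti-PD-L1 tumours, 83.3% of 6 in combination tumours and 64.9% of 305 in control tumours. The exact intervals of the summed counts were 59.6 to 80.3% for minP1, 72.1 to 91.4% for anti-PD-L1, 35.9 to 99.6% for the combination and 59.3 to 70.3% for control. The anti-PD-L1 interval lay above that of control, but these intervals leave out the spread between mice, and anti-PD-L1 replicate 1 alone was at 62.5%. The profiles of Hbb-b1 and Hbb-b2 lay 1.02 apart, and the alpha and beta sums 2.33.

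**Figure D4:**
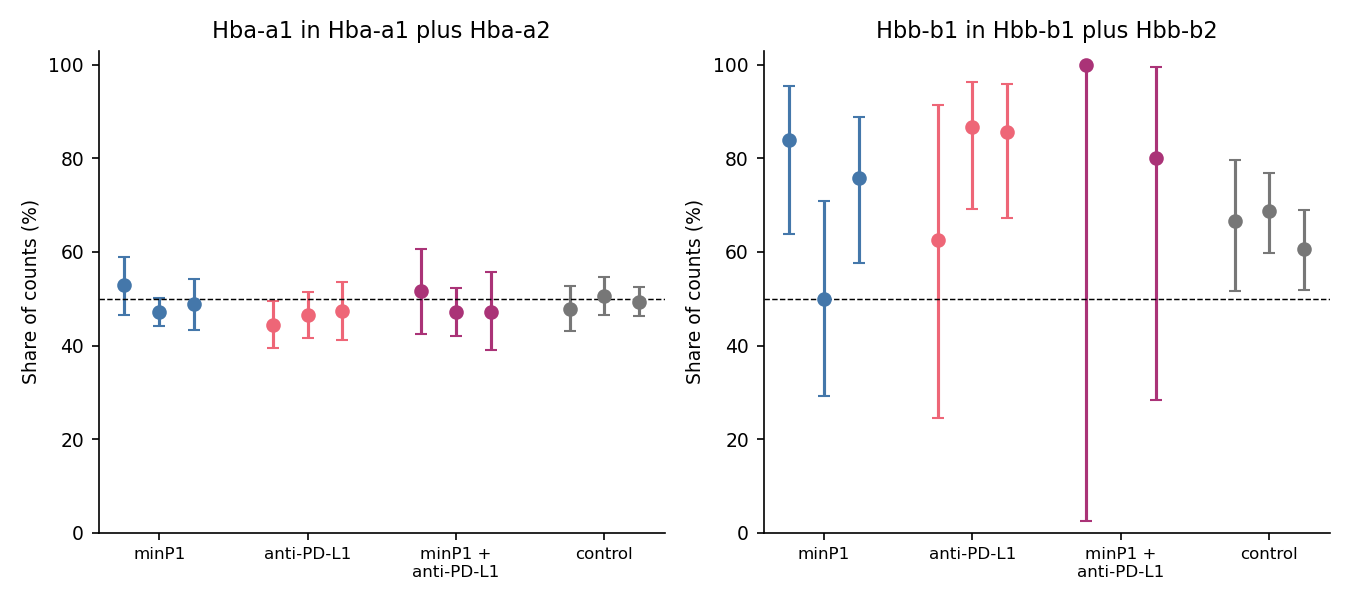
Share of Hba-a1 in the alpha counts (left) and of Hbb-b1 in Hbb-b1 plus Hbb-b2 (right), in %, by library and group, with 95% exact binomial intervals. The dashed line is at 50%, which the intervals of 11 of 12 libraries hold for alpha; combination replicate 2 has no beta point because it held no read.

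Rows of the reference haplotype also took reads, although BALB/c carries the other one. Hbb-bs had 3, 6 and 3 counts in minP1 tumours, 1, 2 and 8 in anti-PD-L1 tumours, 0, 0 and 1 in combination tumours, and 8, 19 and 29 in control tumours. Hbb-bt had 1, 5 and 4 counts in minP1 tumours, 0, 3 and 1 in anti-PD-L1 tumours, 1, 0 and 1 in combination tumours, and 5, 15 and 15 in control tumours. Together they took 131 of the 590 reads of the 4 adult beta rows, 22.2%, with 21.2% in minP1, 18.5% in anti-PD-L1, 33.3% of 9 reads in the combination and 23.0% in control. Added to Hbb-b1 and Hbb-b2 they left the differences of the beta sum from control at -1.47 with minP1, -1.81 with anti-PD-L1 and -5.25 with the combination. The low beta counts were therefore not matched by higher counts in the other beta rows. Neither row passed the filter, and which alleles the reads came from was not tested.

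The other globins of the tables were near 0. Hbb-bh1, an embryonic beta-like globin, had 1 read in 12 libraries and Hbb-bh2 had 2. Mb, the myoglobin of muscle, had 2, and Cygb, the cytoglobin found in many tissues, had 3. None of these 6 further globin rows, Hbb-bs and Hbb-bt included, passed the filter.

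Genes that define red cells and their precursors were nearly absent beside this much alpha globin. Of a list of 28 erythroid genes, 21 were in the tables and 4 passed the filter (Epb41, Slc25a37, Tfrc and Xpo7), all of which are also used outside red cells. The other 17 had 135 counts in all, and none more than 9 in a library. Alas2, the erythroid enzyme that starts haem synthesis, had 9 reads in 12 libraries, against 5473 for the alpha genes. Slc4a1, the band 3 anion exchanger of the red cell membrane, had 1. Summed over the 17, levels were 41.4 to 58.6 CPM in minP1 tumours, 29.7 to 36.3 CPM in anti-PD-L1 tumours, 34.1 to 95.5 CPM in combination tumours and 25.8 to 58.5 CPM in control tumours. These ranges overlapped control in every treated group. Ank1, an ankyrin also found outside red cells, gave 14 of the 28 counts of the combination. Without Ank1, a choice made after seeing its counts, the others had 31 counts in minP1, 17 in anti-PD-L1, 14 in combination and 33 in control tumours. Per library that was 32.9 to 43.9 CPM in minP1, 14.8 to 30.2 CPM in anti-PD-L1, 17.1 to 41.8 CPM in combination and 17.2 to 51.2 CPM in control tumours. Counts this low can show neither an equal nor a lower level of red cell RNA, whose part in the beta values was not tested. In such bulk samples fewer cells of a type and less RNA per cell cannot be told apart.

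The erythroid and haem genes that passed the filter were not used to choose the globins and were tested with edgeR's quasi-likelihood test, with Benjamini-Hochberg adjustment over all 5443 genes. They numbered 11, the 4 erythroid ones and 7 of a list of 18 for haem synthesis, breakdown and transport (17 in the tables). None of the 11 passed an adjusted p of 0.05 with minP1 or anti-PD-L1, by edgeR or by DESeq2, although 3 had an unadjusted p under 0.05 in each. Of all tested genes, edgeR called 0% with minP1 (1 gene by DESeq2) and 1.12% with anti-PD-L1. At an unadjusted edgeR p under 0.05 there were 383 of the 5443 genes with minP1 and 977 with anti-PD-L1. With the combination, Tfrc, Alas1 and Hmox1 were called, all higher, beside 16.5% of all genes higher and 18.3% lower (34.8% in either direction). Of the 11, Epb41 and Alas1 passed the filter only through their combination libraries, so no count over the 11 is read as support.

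Alas1, the housekeeping enzyme of the first step of haem synthesis in cells other than red cells, was at 120, 137 and 95.9 CPM in combination tumours, against 14.3, 14.6 and 11.2 CPM in control tumours. Alas1 passed the filter only through its combination libraries, so a difference there was built into its selection. Its log2 fold change in the combination was 3.11 ± 0.44 (edgeR adjusted p = 1.99e-05). A fit without the filter, which has no such selection, gave 3.05 (edgeR adjusted p = 1.97e-08). That fit also called 51 genes with minP1 and 167 with anti-PD-L1, against 0 and 61 with the filter. Its p-value is therefore not comparable with that of the filtered fit, and neither is read as support. In minP1 tumours Alas1 was at 30.1, 29.3 and 36.2 CPM, with a log2 fold change of 1.25 ± 0.49 (edgeR adjusted p = 0.601). In anti-PD-L1 tumours it was at 24.2, 18.5 and 58.5 CPM, with 1.39 ± 0.50 (edgeR adjusted p = 0.141). All 9 treated libraries lay above every control, where Alas1 had 5, 4 and 5 reads. The share of all genes that lay above control without overlap is not given here, so nothing is read from this.

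Hmox1, haem oxygenase, which breaks haem down to biliverdin, iron and carbon monoxide, was at 316, 239 and 367 CPM in combination tumours, against 45.8, 65.8 and 58.2 CPM in control tumours. It rose by 2.44 ± 0.33 (edgeR adjusted p = 1.08e-05). In minP1 tumours it was at 45.2, 22.0 and 42.8 CPM, with a log2 fold change of -0.61 ± 0.39 (edgeR adjusted p = 0.812). In anti-PD-L1 tumours it was at 115, 167 and 65.4 CPM, with 1.03 ± 0.34 (edgeR adjusted p = 0.116).

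Tfrc, the transferrin receptor, which brings iron into red cell precursors and into many dividing cells, was at 248, 275 and 197 CPM in combination tumours, against 83.0, 102 and 82.9 CPM in control tumours. It rose by 1.43 ± 0.29 (edgeR adjusted p = 0.000748). The log2 fold changes were 0.81 ± 0.29 with minP1 (edgeR adjusted p = 0.502) and 0.51 ± 0.30 with anti-PD-L1 (edgeR adjusted p = 0.383). Alad, Cpox and Fech, later enzymes of haem synthesis, passed the test in no comparison. Cpox averaged 35.8 ± 4.88 CPM in minP1 tumours, 40.5 ± 6.68 CPM in anti-PD-L1 tumours, 47.0 ± 8.21 CPM in combination tumours and 69.1 ± 16.4 CPM in control tumours (SD, n = 3 each).

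**Figure D5:**
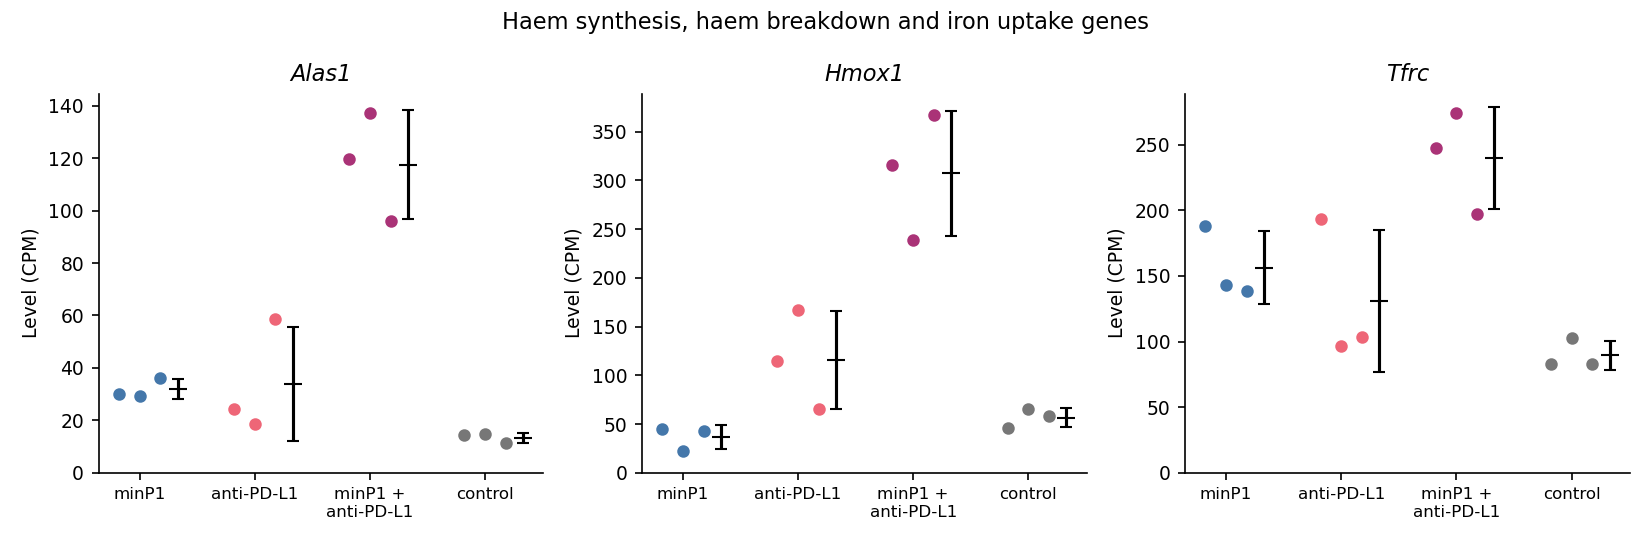
Level (CPM) of Alas1, Hmox1 and Tfrc in each library, 1 panel per gene with its own linear axis from 0. Points are libraries, and the bar is the mean ± SD of 3. For all 3 genes the combination libraries lie above every control, with Alas1 at 95.9 to 137 CPM against 11.2 to 14.6 CPM. Alas1 passed the filter only through these libraries, and the share of all genes that lie so is not given here.

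Markers of other blood and vessel cells were followed in the same libraries. Of 12 macrophage markers 8 were tested, all of which passed the filter without the combination libraries too. In the combination 5 rose and 1 fell, beside the 16.5% and 18.3% of all genes given above, and none was called with minP1 (0% of all genes) or anti-PD-L1 (1.12%). The summed list was at 2256 to 4695 CPM in combination tumours and 1165 to 1371 CPM in control tumours. Of 14 neutrophil markers 6 were tested, but 3 of these (Hdc, Lcn2 and Mmp9) passed the filter only through the combination, so no count of calls is given. Summed over the 12 in the tables, they were at 615 to 745 CPM in combination tumours and 325 to 396 CPM in control tumours. The members went both ways. Cxcr2 gave 57 of the 318 counts in the combination and 294 of 402 in control. Its log2 fold change was -1.16 ± 0.26 in the combination (edgeR adjusted p = 0.0017) and -1.02 ± 0.25 with anti-PD-L1 (edgeR adjusted p = 0.0422). In the combination S100a9 and Csf3r were higher, at 3.11 ± 0.44 (edgeR adjusted p = 1.98e-05) and 1.25 ± 0.38 (edgeR adjusted p = 0.0139). The platelet and megakaryocyte list was at 65.6 to 90.3 CPM in combination tumours and 49.3 to 58.5 CPM in control tumours, with 1 gene tested, which passed the filter only through the combination. A single gene, F5, gave 13 of the 37 counts of that list in the combination and 1 of 58 in control. The endothelial list, with no gene tested, was at 50.8 to 102 CPM in combination tumours and 21.9 to 54.4 CPM in control tumours. Of its counts, Pecam1 gave 15 of 31 in the combination and 4 of 36 in control, while Kdr gave 0 and 5. Neither sum is read as a rise of the whole list. No listed gene that is in the tables was at 0 in all libraries. The part of these cells in the globin or haem gene values was not tested.

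By profile over the 12 libraries, the genes most like the beta sum were Emp3, Sbds, LOC108168478, Psma5 and Dst. Their root mean square distances were 0.72 to 0.82, beside a median of 2.23 over 3490 genes that varied by an SD of at least 0.5. Emp3, a small membrane protein, averaged 61.0 CPM in minP1, 65.5 CPM in anti-PD-L1, 14.1 CPM in combination and 115 CPM in control tumours. Psma5, a proteasome subunit, averaged 56.4 CPM in minP1, 40.6 CPM in anti-PD-L1, 11.3 CPM in combination and 112 CPM in control tumours. These genes were picked as the nearest of 3490, and the beta sum rests on 0 to 5 reads in each combination library. Their distances to a sum are not comparable with the 1.02 between Hbb-b1 and Hbb-b2, which are single rows. The alpha sum had Zbtb4, Ap4e1 and Eif5b nearest, at 0.36 to 0.41, beside a median of 0.89 over 5439 genes. The 0.13 between Hba-a1 and Hba-a2 is likewise a distance between single rows and not to the sum.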

How the data were processed

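Polyadenylated RNA of digested tumours was sequenced from the 5′ end on an Ion S5, per the labels' protocols. The authors deposited a table for each sample with raw counts by gene symbol. Bowtie2 2.2.5, R 3.6.1, DESeq2 and mm10 are named, per the submitters' processing notes, without their roles. How reads were counted (tool, annotation, strand, multiply matching reads) is not given in the sources used here.

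Groups came from the labels. Genes were kept with filterByExpr of edgeR 4.0.16 (R 4.3.3) at its defaults, 5443 of 19921, and scaled by TMM. The quasi-likelihood test used all 12 samples together, each group having its own mean. Its p-values were adjusted by Benjamini-Hochberg over 5443 genes, with a threshold of 0.05. The common biological coefficient of variation was 22.5%. The code was tested on simulated data. Globin values were described, not tested: differences of mean log2(CPM + 1), and exact 95% intervals of counts. An exact permutation test of 3 against 3 libraries cannot go below 0.1. Named were the 4 globins, the other globin rows, each erythroid or haem gene that passed in a comparison, and the 5 and 3 genes nearest to the beta and alpha sums. Members and lists were chosen with earlier results of these data known. Alternatives were other scalings (DESeq2 1.42.0 size factors, raw totals), DESeq2's test, no filter, a replicate block, 6 samples only, other pseudocounts, and each library left out. The alternatives that sum 4 beta rows, and the block on the ratio, were chosen after seeing the data. Totals of 133917 to 473273 counts limit precision for low rows, with 0 to 5 beta reads in each combination library.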

Additional observations from a re-analysis of the deposited data

How the results depend on the processing

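The differences of the beta sum, the alpha sum and the beta to alpha ratio from control moved by less than the spread between replicates (1 SD) under all 99 alternatives computed. For a library left out and for the replicate block this was fixed in advance and is no support. Dropping 1 of 3 libraries cannot shift a mean that far, and the block leaves it unchanged. Shifts within 1 SD could be large. The alpha difference with minP1 went from -0.16 to 0.20 without minP1 replicate 1. The beta difference in the combination went from -5.35 to -3.84 with 10 CPM added. Leaving out each library in turn gave -1.92 to -1.07 for the beta sum with minP1, -2.18 to -1.33 with anti-PD-L1 and -6.43 to -3.99 with the combination. The calls of Alas1, Hmox1 and Tfrc kept their side of the threshold in all 150 alternative fits that gave an adjusted p (DESeq2 gave none for Alas1 with anti-PD-L1, and Alas1 did not pass the filter in the 6 samples of either lone treatment and control), with edgeR or DESeq2 adjusted p-values in the combination of at most 0.000251 for Alas1, 7.39e-05 for Hmox1 and 0.00546 for Tfrc. Counts of called genes moved more. For minP1 the count was 0, 1 with DESeq2, 51 with no filter and 0 to 5 with a library left out (5 without control replicate 3 or minP1 replicate 1, and 1 without minP1 replicate 3). For anti-PD-L1 it was 61, and 167 with no filter, 173 with the replicate block, 126 with 6 samples only and 1 to 169 with a library left out. It was 12, 6 and 20 without anti-PD-L1 replicates 1, 2 and 3, 169 without minP1 replicate 2, 102 without combination replicate 3, and 106 and 1 without control replicates 1 and 2. For the combination it was 1892, and 1433 to 2054 with a library left out. The erythroid and haem genes called in the combination numbered 3, and 3 to 5 with a library left out (5 without control replicate 1). With the replicate number as a block the calls were 0 for minP1, 173 for anti-PD-L1 and 1972 for the combination, of which 3 were erythroid or haem genes, all in the combination. The block left the differences of the beta sum as they were and put their SE at 0.52 for minP1, 0.15 for anti-PD-L1 and 1.73 for the combination. The numbers were not taken to pair the mice, since only 9 of 18 same-numbered pairs had deviations correlated above 0.1 (-0.14 to 0.21). The data lean towards some pairing, with a median of 0.10 for same-numbered and -0.04 for other pairs, and 7 of 12 libraries correlated best with their own number. Depth limits the combination most, where beta globin rests on 6 reads.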
